A study of Mus musculus with 18 samples.

Results

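The genes described here are 10 integrin subunits of macrophages, chosen by name from the 49315 genes counted: the α subunits Itgax, Itgam, Itgal, Itgav, Itga4 and Itga5 and the β subunits Itgb1, Itgb2, Itgb3 and Itgb5. Each symbol was matched to 1 Ensembl gene, and all 10 passed the filter on low counts in each of the 12 comparisons.

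An integrin is a receptor made of 1 α and 1 β chain, which grips matrix or another cell outside and is tied to actin by talin and kindlin inside. Leukocytes make a family that shares the β2 chain: Itgal with Itgb2 gives LFA-1, Itgam with Itgb2 gives Mac-1 (complement receptor 3), and Itgax with Itgb2 gives the CD11c receptor (complement receptor 4). Itgav pairs with Itgb3 or Itgb5 into receptors for vitronectin and for the bridging protein MFGE8, which links phosphatidylserine on a dying cell to the phagocyte. Itgb1 pairs with Itga5 as the main fibronectin receptor and with Itga4 as VLA-4, a receptor for VCAM-1 and fibronectin. Uptake of apoptotic cells, efferocytosis, uses the αV receptors of the phagocyte, while the β2 receptors also take up particles coated with complement.

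The macrophages were grown from mouse femur bone marrow in medium conditioned by L929 cells, and RNA was sequenced from 18 libraries in 6 groups of 3 biological replicates. The labels name a wild type (WT), which the study's text gives as HDAC3f/f, and an HDAC3 KO, written here as HDAC3-/-. In the HDAC3-/- animals exon 7 of Hdac3, which lies between loxP sites, is removed by a Cre expressed from the lysozyme 2 locus (LysM-Cre), which acts in myeloid cells and can leave cells with an intact allele. Each genotype was left untreated, or was cocultured for 45 min with non-apoptotic cells (NACs) or with apoptotic cells (ACs), washed and kept for 5 h. Both kinds of cocultured cell were K562, a human leukaemia line, and the ACs were used 2 h after a UVB exposure of 15 min. No animal age was used here.

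Library totals ran from 4704491 to 26421267 counts with a median of 16477929, and replicate 1 of untreated HDAC3-/- was the shallowest. The count of Hdac3 covers the whole gene, of which the deletion takes exon 7, so its level does not measure the deleted part and is no check of the labels: it stood at 3.38 to 48.7 CPM (counts relative to the TMM-scaled library size) in the 9 libraries labelled HDAC3f/f and at 4.66 to 74.6 CPM in the 9 labelled HDAC3-/-, and its log2 fold change between labels was -0.22 with ACs, -0.34 with NACs and 0.49 untreated, none of them called. Lyz2, the locus that carries the Cre, was lower in HDAC3-/- untreated, -1.94 (adjusted p = 0.0425), and was not called with NACs, 1.20 (adjusted p = 0.144), or with ACs, 0.80 (adjusted p = 0.284). The genotypes below are those of the labels. All 10 macrophage markers were present in all 18 libraries. Their sums were 11200 to 19700 CPM untreated, 12100 to 15900 with NACs and 10100 to 12000 with ACs in HDAC3f/f. In HDAC3-/- they were 7420 to 20100, 12300 to 20500 and 15500 to 18000 CPM. The macrophage sums did not overlap between genotype labels with ACs, where HDAC3-/- was higher, or between ACs and NACs in HDAC3f/f. The part of this shift in the integrin differences was not tested. Of 12 granulocyte markers, several of which immature myeloid cells also express, 11 averaged at least 1 CPM, and their sums were 260 to 1310 CPM untreated, 607 to 1160 with NACs and 413 to 998 with ACs in HDAC3f/f, and 516 to 1060, 334 to 960 and 478 to 831 in HDAC3-/-. The granulocyte sums overlapped in each comparison, and the part of granulocytes, which carry Itgal, Itgam and Itgb2, was not tested. Libraries also differed in how counts followed the GC content of genes: the slope of log2 level on GC content, relative to the mean over libraries, ran from -0.708 to 0.857 per 10 percentage points, with group means of -0.587 (untreated), 0.254 (NACs) and -0.006 (ACs) in HDAC3f/f and 0.576, -0.349 and 0.111 in HDAC3-/-.

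Per kilobase of exon, 3 integrins led. Over the 18 libraries Itga5 averaged 121 ± 59.6 CPM per kb (SD, n = 18), Itgb2 96.4 ± 69.3 and Itgb5 88.1 ± 35.2, followed by Itgb1 at 30.4 ± 15.4. Itgb5 stood above Itgb1 in 18 of 18 libraries, whereas the order within the leading 3 was not stable: Itga5 exceeded Itgb2 in 11 of 18 libraries and Itgb2 exceeded Itgb5 in 7. A middle set held Itgam at 11.3 ± 8.99, Itgal at 8.9 ± 5.02, Itgax at 5.98 ± 7.34 and Itgav at 4.02 ± 1.71 CPM per kb, and Itgax lay below Itgav in all but 6 libraries although its mean was higher. Itgb3 at 0.996 ± 0.749 and Itga4 at 0.629 ± 0.272 were the lowest, and Itgb3 was the higher of the pair in 10 of 18 libraries. Of the β partners of Itgav, Itgb5 was the more abundant in every library, with a lowest value of 45.8 CPM per kb beside a highest of 2.86 for Itgb3.

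**Figure D1:**
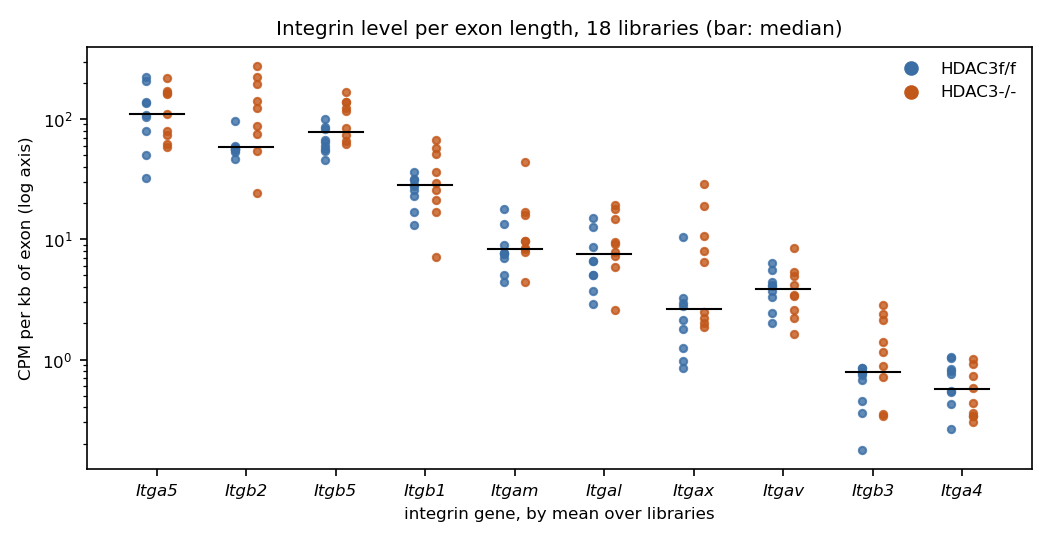
Level of each integrin gene in CPM per kb of exon length (log axis), 1 point per library, blue for libraries labelled HDAC3f/f and orange for HDAC3-/-, with the median as a bar. Itga5, Itgb2 and Itgb5 overlap at the top and Itgb3 and Itga4 overlap at the bottom, and Itgax spans the widest range, 33.5-fold from lowest to highest library in CPM.

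The level of Itgam is uncertain. Of its 5024 exon bases, 3450 (68.7%) also belong to Gm49368, a gene model on the same strand that the count table lists separately and that received 0 to 35 counts. Reads that fit both may have been left out of both, a setting not given in the sources used here. Taken over the 1574 exon bases that Itgam does not share, its level would average 36.2 ± 28.7 CPM per kb. Changes of Itgam between groups rest on the same bases in all libraries. For Itgav and Itga4, 5.9% and 8.04% of the exon bases lie opposite Gm13684 and Cerkl on the other strand.

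Itgam and Itgax are neighbours on mouse chromosome 7 (GRCm38), both on the plus strand: Itgam at chr7:128062640-128118491 and Itgax at chr7:128129547-128150657, with 11055 bases between them, and Itgal lies on the same chromosome at chr7:127296260-127335138. The stretch around the start of each gene (250 bases before to 50 after, RefSeq, GRCm38.p6) was at hand for 7 of the 10 genes, not for Itgal, Itgb2 and Itgb3. The starts of Itgax and Itgam are shown because these neighbours shared little of their pattern over the libraries (r = 0.015, and -0.279 on the deviations from the group means). That of Itgb5 is shown because, of the genes with a start at hand, it followed Itgax most closely over the libraries (r = 0.813). On the deviations Itgb5 had 0.475 and Itga5 0.569 with Itgax. Itgb3 and Itgb2 were closer to Itgax over the libraries (r = 0.878 and 0.846). The levels of Itgb5 and Itgax both followed the GC slope of the libraries (r = 0.683 and 0.666). Capitals mark GAGGAA, a form of the site bound by the myeloid factor PU.1, and GGGCGG, the Sp1 box. Both were searched on either strand (TTCCTC and CCGCCC on the other), and the motifs do not overlap. Shorter or other forms of these sites were not searched.
Itgax (chr7:128129300-128129599, plus strand): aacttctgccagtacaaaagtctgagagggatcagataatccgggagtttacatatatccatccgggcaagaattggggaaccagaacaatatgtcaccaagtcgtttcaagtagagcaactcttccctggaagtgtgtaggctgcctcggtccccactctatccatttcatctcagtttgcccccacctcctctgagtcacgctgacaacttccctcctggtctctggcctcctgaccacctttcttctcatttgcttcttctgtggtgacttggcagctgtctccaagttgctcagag
Itgam (chr7:128062390-128062689, plus strand): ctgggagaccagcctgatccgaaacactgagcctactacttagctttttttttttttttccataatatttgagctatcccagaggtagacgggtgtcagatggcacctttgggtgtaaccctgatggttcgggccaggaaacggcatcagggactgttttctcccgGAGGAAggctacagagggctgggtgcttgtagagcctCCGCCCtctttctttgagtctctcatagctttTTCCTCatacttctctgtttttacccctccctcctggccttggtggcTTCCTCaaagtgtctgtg
Itgb5 (chr16:33829415-33829714, plus strand): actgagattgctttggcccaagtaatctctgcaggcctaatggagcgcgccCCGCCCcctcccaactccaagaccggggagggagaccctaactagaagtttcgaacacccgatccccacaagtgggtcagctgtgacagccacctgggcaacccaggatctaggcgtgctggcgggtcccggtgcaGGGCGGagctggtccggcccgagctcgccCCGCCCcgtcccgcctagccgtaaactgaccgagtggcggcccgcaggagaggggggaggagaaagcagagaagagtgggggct

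The start of Itgam held GAGGAA 3 times, and that of Itgax held none of the exact forms searched, which does not exclude other forms of these sites. The start of Itgb5 held GGGCGG 3 times and no GAGGAA. Of the 7 starts, 4 held GAGGAA, 6 held GGGCGG and 0 held TATAAA, on either strand. Of the 32851 stretches of this length in the table, 28.3% held GAGGAA, 35.7% GGGCGG and 13.6% TATAAA. These matches describe letters and were not tested as binding sites.

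A gene was called where its Benjamini-Hochberg adjusted p, over all genes tested by edgeR's quasi-likelihood test, was under 0.05. In HDAC3-/- against HDAC3f/f with ACs, 2 of the 10 integrins were called, both higher (Itgax and Itgb2), against 3.75% of all genes tested. With NACs 1 was called higher (Itgal), against 0.864% of genes. Untreated, 1 was called higher (Itgax), against 11.6%, so that the integrins were called about as often there as other genes. Between ACs and NACs, 3 were called higher with ACs in HDAC3-/- (Itgax, Itgb2 and Itgb3), against 7.38% of genes. In HDAC3f/f this comparison gave 0 of 10 with edgeR, where 2 had an unadjusted p under 0.05, against 0.0% of all genes, and DESeq2 and limma-voom also called 0 of the integrins.

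Against untreated cells, NACs gave 3 calls in HDAC3f/f (Itgax higher, Itgal and Itga4 lower), against 8.52% of genes. In HDAC3-/- edgeR called 0 of 10 with NACs, against 6.54% of genes, although 6 had an unadjusted p under 0.05, DESeq2 called 3 and limma-voom 2. ACs against untreated gave 0 of 10 in HDAC3f/f (1 at an unadjusted p under 0.05) and 0 of 10 in HDAC3-/- (2 at an unadjusted p under 0.05), and edgeR called 0.0% and 0.0% of all genes in these comparisons, while DESeq2 and limma-voom called 0 of the integrins. The difference between genotype effects (interaction) called 1 integrin, Itgax, for ACs or NACs, against 0.0765% of genes. It called 0 for ACs or untreated, against 0.0% of genes, with 3 at an unadjusted p under 0.05, 2 by DESeq2 and 0 by limma-voom. For NACs or untreated it called 6 of 10, against 34.8% of genes.

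The share of all genes whose groups did not overlap ran from 10.4% to 41.9% over the comparisons of 3 against 3 libraries. With ACs the levels of 5 integrins did not overlap between genotype labels (4 higher and 1 lower in HDAC3-/-), against 28.8% of genes with a mean of at least 1 CPM. With NACs 6 did not (5 higher, 1 lower; 27.4% of genes), and untreated 5 did not (2 higher, 3 lower; 41.9%). ACs and NACs did not overlap for 2 integrins in HDAC3f/f (both higher with ACs; 10.4%) and for 5 in HDAC3-/- (4 higher, 1 lower; 29.9%). ACs and untreated did not overlap for 1 in HDAC3f/f (lower; 15.7%) and 3 in HDAC3-/- (2 higher, 1 lower; 22.1%). NACs and untreated did not overlap for 6 in HDAC3f/f (3 higher, 3 lower; 30.5%) and 4 in HDAC3-/- (3 higher, 1 lower; 39.6%). With 3 libraries against 3 an exact permutation test cannot go below p = 0.1.

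**Figure D2:**
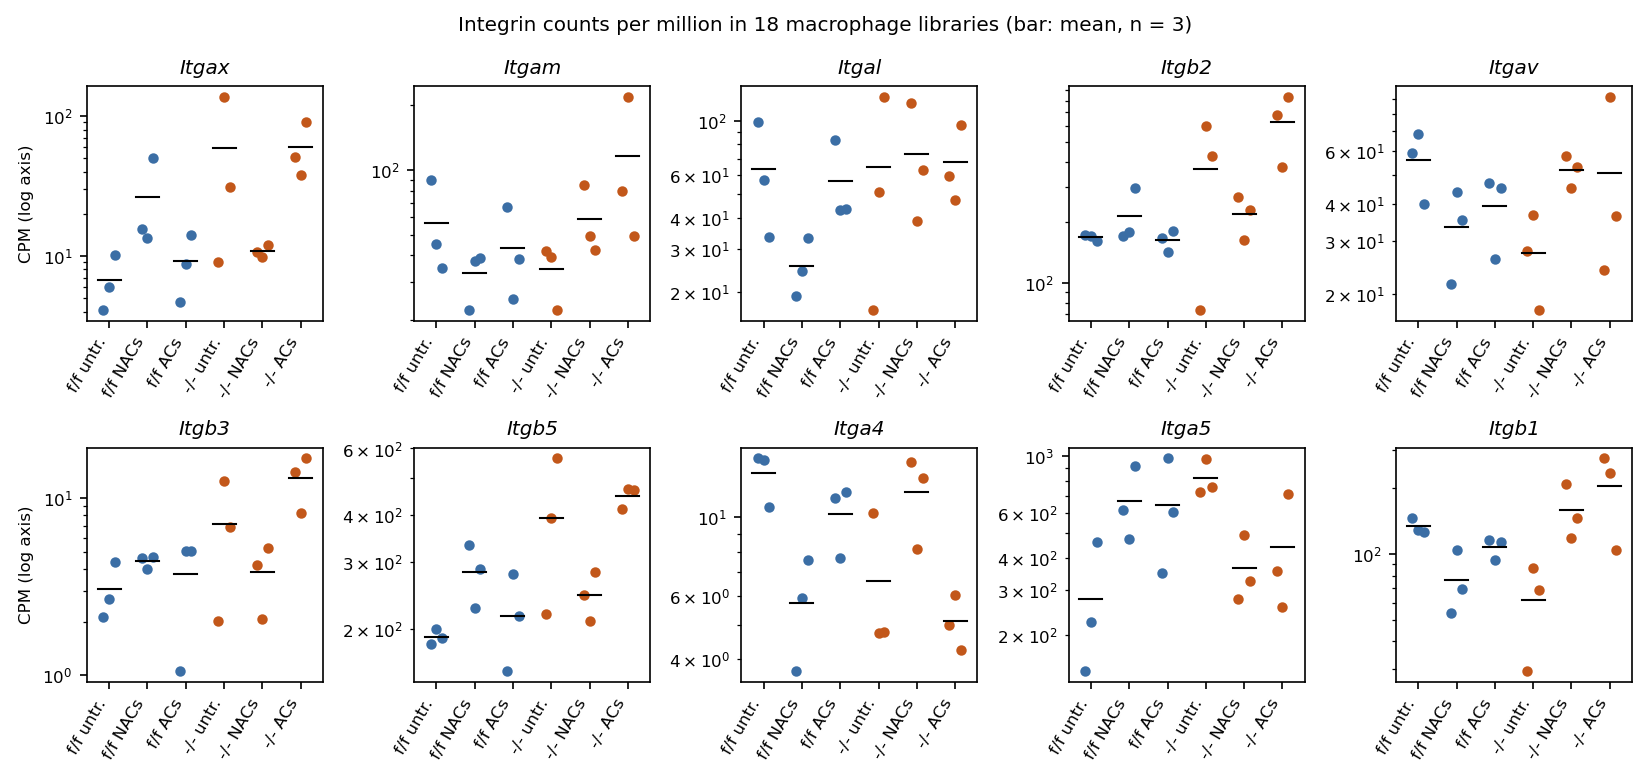
CPM of each integrin in every library (log axis), 3 points per group with the mean as a bar, blue for HDAC3f/f and orange for HDAC3-/- labels. Itgax, Itgb2 and Itgb3 stand highest with ACs among the HDAC3-/- groups cocultured with cells, and Itga4 has its lowest group mean there, at 4.25 to 6.05 CPM.

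Itgax encodes the αX chain (CD11c). With ACs it stood at 4.71, 8.7 and 14.1 CPM in the HDAC3f/f libraries and at 51.3, 38.2 and 90.1 CPM in the HDAC3-/- libraries. Every HDAC3-/- library with ACs lay above every HDAC3f/f library with ACs, by 2.64 (SE 0.48, adjusted p = 0.0153) on the log2 scale. With NACs the order was the other way round: 15.7, 13.5 and 50.5 CPM in HDAC3f/f and 10.6, 9.75 and 12 CPM in HDAC3-/-, without overlap and without a call, -1.27 (SE 0.42, adjusted p = 0.114). This reversed order leaned on HDAC3f/f replicate 3: without it the difference was -0.35 (adjusted p = 0.646), and without replicate 2 it was -1.51 (adjusted p = 0.023). The difference between these genotype effects was called, with an interaction of 4.00 (SE 0.70, adjusted p = 0.0303). Within HDAC3-/-, Itgax was higher with ACs than with NACs by 2.47 (SE 0.41, adjusted p = 0.00101) on the log2 scale.

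Untreated macrophages held 4.11, 5.99 and 10.2 CPM of Itgax in HDAC3f/f and 9.04, 138 and 31.3 CPM in HDAC3-/-. The called difference of 3.15 (SE 0.81, adjusted p = 0.0331) came with overlapping groups, since replicate 1 of HDAC3-/- lay below replicate 3 of HDAC3f/f, and it leaned on replicate 2 of HDAC3-/-: without that library it was 1.48 (adjusted p = 0.13). The call also ended without replicate 1, 2 or 3 of HDAC3f/f (adjusted p = 0.135, 0.167 and 0.0892) and without replicate 3 of HDAC3-/- (0.0706). In HDAC3f/f, NACs went with a higher Itgax than no treatment, 1.93 (SE 0.43, adjusted p = 0.0106), of which 1.04 remained (adjusted p = 0.212) without replicate 3 with NACs. That call also ended without replicate 1 or 2 of the untreated libraries (adjusted p = 0.0964 and 0.0785). The interaction for NACs or untreated was -4.09 (SE 1.11, adjusted p = 0.0145), and its adjusted p stayed under 0.05 whichever of the 12 libraries was left out.

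Itgax is also a common marker of dendritic cells. Of the 10 other dendritic cell markers, 1 (Fscn1) averaged at least 1 CPM, and their summed level was 2.93 to 8.5 CPM in HDAC3f/f and 8.16 to 12.8 in HDAC3-/- with ACs, 4.7 to 7.77 and 1.68 to 5.47 with NACs, and 1.06 to 5.06 and 10.8 to 15.0 untreated. The sum was higher in HDAC3-/- without overlap untreated, as Itgax was in 2 of the 3 HDAC3-/- libraries, and it was higher with ACs than with NACs in HDAC3-/- without overlap, as Itgax was. It overlapped between genotype labels with ACs, where Itgax did not. Fscn1 alone ran from 0.397 to 12.7 CPM. Zbtb46 was present in all 18 libraries at up to 1.94 CPM and Ccl22 reached 2.57 CPM, while Flt3 and Xcr1 did not exceed 0.502 and 0.629 CPM and Clec9a had no count in 12 of 18 libraries. The part of dendritic cells in the differences of Itgax was not tested. In bulk RNA, fewer cells of a type and less RNA per cell cannot be told apart.

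Itgb2, the β2 chain that all of Itgal, Itgam and Itgax need to reach the surface, followed Itgax. With ACs it stood at 167, 143 and 181 CPM in HDAC3f/f and at 679, 376 and 838 CPM in HDAC3-/-, with no overlap, and differed by 1.88 (SE 0.41, adjusted p = 0.0256) on the log2 scale. With NACs the groups overlapped, at 171, 179 and 296 CPM and 267, 164 and 229 CPM, and within HDAC3-/- the rise from NACs to ACs was 1.52 (SE 0.40, adjusted p = 0.0201). The interaction was 1.91 and missed the threshold (adjusted p = 0.0711), so Itgb2 was not shown to respond to the genotype label differently in the 2 cocultures. Untreated, Itgb2 was even across HDAC3f/f at 173, 170.2 and 162 CPM and spread widely in HDAC3-/- at 73.6, 600.1 and 427 CPM, where the shallowest library gave the lowest value.

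The calls with ACs depended on single libraries for all genes. Without HDAC3-/- replicate 2 with ACs, they rose from 461 to 1693 between genotype labels and from 904 to 3013 between ACs and NACs in HDAC3-/-. Without HDAC3-/- replicate 1 with ACs, edgeR called 0 of 12723 genes between genotype labels (1810 at an unadjusted p under 0.05) and 0 of 12689 between ACs and NACs in HDAC3-/- (2169 at an unadjusted p under 0.05). The log2 fold changes of Itgax and Itgb2 between genotype labels did not shrink, at 2.80 and 1.89, and both adjusted p rose to 0.313. Without HDAC3f/f replicate 3 with ACs, that of Itgb2 was 2.00 (adjusted p = 0.0517). Between ACs and NACs in HDAC3-/-, Itgax lost its call without replicate 1 with ACs (2.54, adjusted p = 0.0919). Itgb2 lost it without replicate 1 or 3 with ACs (adjusted p = 0.158 and 0.0707) and without replicate 2 or 3 with NACs (0.148 and 0.0606), and its log2 fold change stayed at 1.29 or more. The interaction of Itgax for ACs or NACs lost its call without any 1 of 8 of the 12 libraries, with adjusted p of up to 0.149, and ranged from 2.93 to 4.44.

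Itgam and Itgal, the α chains of Mac-1 and LFA-1, did not share this pattern. Itgam with ACs stood at 66.9, 25.1 and 38.4 CPM in HDAC3f/f and 79.4, 219 and 49 CPM in HDAC3-/-, where replicate 2 alone passed 200 CPM, and the groups overlapped (log2 fold change 1.40, adjusted p = 0.131). With NACs it stood at 22.3, 37.6 and 39 and 85.3, 49 and 42.3 CPM, which did not overlap, 0.86 (SE 0.35, adjusted p = 0.153). Untreated HDAC3f/f held 89.9, 45.2 and 34.8 CPM and untreated HDAC3-/- 41.7, 39.2 and 22.4 CPM. Within HDAC3-/- both cocultures lay above untreated, by 1.90 (SE 0.58, adjusted p = 0.311) for ACs and 0.95 (SE 0.42, adjusted p = 0.161) for NACs, neither called. The value for ACs leaned on replicate 2 and was 1.02 without it (adjusted p = 0.442), and that for NACs was 0.54 without replicate 1 with NACs and 0.62 without replicate 3 untreated (adjusted p = 0.547 and 0.336). Its interaction for NACs or untreated was called, 1.95 (SE 0.61, adjusted p = 0.0181). That call ended without any 1 of 6 of the 12 libraries (adjusted p = 0.0509 to 0.149), and the interaction was 1.17 without HDAC3f/f replicate 1 untreated.

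Itgal had its lowest group mean in HDAC3f/f with NACs. It stood at 19.1, 24.2 and 33.2 CPM there, at 99, 57.2 and 33.4 CPM in untreated and 83.7, 43.1 and 43.6 CPM in ACs-treated HDAC3f/f, and at 118, 39 and 62.6 CPM in HDAC3-/- with NACs. The NACs libraries of HDAC3f/f lay below each of these groups without overlap: they differed from untreated by -1.39 (SE 0.38, adjusted p = 0.0261), HDAC3-/- exceeded HDAC3f/f with NACs by 1.56 (SE 0.38, adjusted p = 0.0474), and ACs exceeded NACs in HDAC3f/f by 1.19 without a call (SE 0.38, adjusted p = 0.898). In HDAC3-/- the untreated and ACs-treated libraries spread widely, at 16.8, 51.2 and 125 and 59.5, 47.5 and 95.9 CPM. The call of Itgal with NACs ended without HDAC3f/f replicate 1 or 3 or HDAC3-/- replicate 1 (adjusted p = 0.268, 0.127 and 0.312). The call against untreated ended without HDAC3f/f replicate 1 or 2 untreated (adjusted p = 0.262 and 0.107) and without replicate 1 or 3 with NACs (0.187 and 0.06), and the log2 fold change was -0.90 without untreated replicate 1. LFA-1 is also abundant on lymphocytes: of 10 T and NK cell markers 2 averaged at least 1 CPM (Cd4, and Lck at a median of 0.944 CPM), with summed levels of 12.4 to 19.7 CPM in HDAC3f/f and 7.31 to 32.5 in HDAC3-/- with NACs, and Cd3e and Cd3d did not exceed 0.398 and 1.19 CPM. The part of lymphocytes in the calls of Itgal was not tested.

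Of the chains of the αV receptors, Itgb3 was called in 1 of the comparisons of 3 against 3 libraries, and Itgb5 and Itgav in 0 of them (edgeR, libraries compared fitted alone). Itgb3 was low, but higher with ACs in HDAC3-/-, at 14.2, 8.24 and 16.9 CPM against 4.19, 2.09 and 5.23 CPM with NACs and 1.05, 5.05 and 5.06 CPM in HDAC3f/f with ACs. The rise from NACs to ACs in HDAC3-/- was called, 1.75 (SE 0.45, adjusted p = 0.0174). That call ended without HDAC3-/- replicate 1 or 3 with ACs (adjusted p = 0.156 and 0.0796) or replicate 2 with NACs (0.148). The difference between genotype labels with ACs, also without overlap, was not called by edgeR, 1.73 (SE 0.54, adjusted p = 0.0724), or by limma-voom (0.0721). It was called by the DESeq2 Wald test, 1.80 (adjusted p = 0.0227). EdgeR called it without the filter (0.019), with 10 or more counts in each library (0.0342), and without replicate 2 of HDAC3f/f (0.0381) or of HDAC3-/- (0.0177). Untreated and NACs-treated HDAC3f/f held 2.12, 2.69 and 4.39 and 4.59, 3.96 and 4.66 CPM, and untreated HDAC3-/- 2.01, 12.6 and 6.86 CPM. Itgb3 is also a platelet integrin: 6 of 10 platelet and megakaryocyte markers averaged at least 1 CPM, led by Pf4, which macrophages also express, with sums of 142 to 255 CPM with NACs and 91.8 to 280 with ACs in HDAC3-/-. Vwf was present in all 18 libraries at 4.9 to 27.1 CPM, and Gp6 had no count in 10 of 18. The part of such cells in the call of Itgb3 was not tested.

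Over the 18 libraries Itgb5 had the narrowest range of the β chains, 3.67-fold. With ACs it stood at 414, 469 and 466 CPM in HDAC3-/- and 154, 279 and 217 CPM in HDAC3f/f, apart by 1.00 (SE 0.40, adjusted p = 0.132) on the log2 scale. With NACs it stood at 245, 209 and 282 and 334, 226 and 287 CPM in the same order. Untreated HDAC3f/f held 182, 199.8 and 188 CPM and untreated HDAC3-/- 219, 393 and 566 CPM. These untreated groups did not overlap, 0.94 (SE 0.43, adjusted p = 0.132), and neither did ACs and NACs in HDAC3-/-, 0.89 (SE 0.37, adjusted p = 0.132), or NACs and untreated in HDAC3f/f, 0.50 (SE 0.40, adjusted p = 0.369). Itgb5 was called in 0 of the 12 comparisons when edgeR fitted the libraries compared alone. Between genotype labels untreated it was called by the DESeq2 Wald test, 1.06 (adjusted p = 0.0479), and by the fit of all 18 libraries, 1.04 (adjusted p = 0.0387). It was also called there without the shallowest library, HDAC3-/- replicate 1, 1.16 (adjusted p = 0.00925). Each library was also given an offset for its own trend with gene GC content and length (the GC and length offset). The GC trend differed between groups, so the offset also takes out any difference between groups that follows GC content or length. A trend from the library preparation and one from the cells cannot be told apart here. With the offset the untreated difference was 0.07 (adjusted p = 0.927). With that offset the difference with ACs was called, 1.11 (adjusted p = 0.0318). It was not called when the replicate number was blocked as well, 1.065 (adjusted p = 0.0808).

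Itgav, the α chain that both of these pair with, was not called between genotype labels with ACs. It stood at 24, 91.6 and 36.5 CPM in HDAC3-/-, with replicate 2 well above the others, and at 47, 26.1 and 45.2 CPM in HDAC3f/f (log2 fold change 0.35, adjusted p = 0.687). Untreated HDAC3f/f held 59.5, 68.7 and 39.9 CPM and untreated HDAC3-/- 27.9, 36.8 and 17.6 CPM, with no overlap, -1.12 (SE 0.46, adjusted p = 0.0987). With NACs the order turned, 21.6, 43.7 and 35.4 CPM in HDAC3f/f and 57.8, 45.2 and 53 CPM in HDAC3-/-, 0.66 (SE 0.33, adjusted p = 0.22), and NACs exceeded untreated in HDAC3-/- by 1.10 (SE 0.38, adjusted p = 0.0978). The interaction for NACs or untreated was called, 2.05 (SE 0.56, adjusted p = 0.00904). That call ended without replicate 2 untreated or replicate 1 with NACs of HDAC3f/f (adjusted p = 0.0681 and 0.0596).

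Among the β1 receptors, Itgb1 lay on opposite sides of its untreated level in the cocultures of the 2 genotype labels. In HDAC3f/f the untreated libraries held 147, 129 and 126 CPM, those with NACs 54, 105 and 69.2 and those with ACs 116, 93.9 and 114. The untreated HDAC3-/- libraries held 29.1, 86.7 and 68.9 CPM, those with NACs 210.1, 119 and 147 and those with ACs 275, 236 and 105. Both cocultures thus lay below untreated in HDAC3f/f without overlap and above it in HDAC3-/- without overlap. The log2 fold changes of NACs against untreated were -0.88 (SE 0.39, adjusted p = 0.101) in HDAC3f/f and 1.56 (SE 0.44, adjusted p = 0.0593) in HDAC3-/-, and those of ACs against untreated were -0.40 (SE 0.29, adjusted p = 0.489) and 1.90 (SE 0.53, adjusted p = 0.311). Between the genotype labels Itgb1 was lower in HDAC3-/- untreated, -1.20 (SE 0.46, adjusted p = 0.0874), and higher with NACs, 1.09 (SE 0.35, adjusted p = 0.0973). When edgeR fitted the libraries compared alone, only the interaction for NACs or untreated was called, 2.56 (SE 0.58, adjusted p = 0.00307). No library left out ended that call, but the GC and length offset did (0.77, adjusted p = 0.308). Other fits called Itgb1 elsewhere: with NACs by the DESeq2 Wald test (1.09, adjusted p = 0.0491), and untreated with library totals alone (-1.75, 0.0162) or all 18 libraries in 1 fit (-1.12, 0.0495). With ACs it was called with the offset (1.02, adjusted p = 0.0384), but not when the replicate number was blocked as well. With the offset, Itgb1 in HDAC3f/f differed from untreated by -0.25 with NACs (adjusted p = 0.647) and by 0.04 with ACs (adjusted p = 0.966), and in HDAC3-/- by 0.44 and 1.18 (adjusted p = 0.631 and 0.436).

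Itga4 and Itga5, both partners of Itgb1, had interactions of opposite sign for NACs or untreated, whereas with ACs both had the lower mean in HDAC3-/-, 5.10 against 10.2 CPM for Itga4 and 442 against 647 CPM for Itga5. Itga4 in HDAC3f/f stood at 14.6, 14.5 and 10.7 CPM without coculture, 3.69, 5.94 and 7.58 after NACs and 11.3, 7.67 and 11.7 after ACs, and at 10.3, 4.75 and 4.77, 14.2, 8.16 and 12.9 and 5.00, 6.05 and 4.25 CPM in HDAC3-/-. It fell from untreated to NACs in HDAC3f/f, -1.27 (SE 0.41, adjusted p = 0.0427), a call that ended without untreated replicate 1 or 2 (adjusted p = 0.216 and 0.198) or NACs replicate 1 or 3 (0.223 and 0.116). Uncalled differences without overlap were ACs against NACs, 0.85 (SE 0.40, adjusted p = 0.898) in HDAC3f/f and -1.19 (SE 0.42, adjusted p = 0.0727) in HDAC3-/-, and HDAC3-/- against HDAC3f/f, -1.04 (SE 0.45, adjusted p = 0.16) with ACs, 1.06 (SE 0.39, adjusted p = 0.135) with NACs and -1.17 (SE 0.46, adjusted p = 0.091) untreated.

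Itga5 in HDAC3f/f stood at 144, 224 and 463 CPM without coculture, 615, 477 and 920.3 after NACs and 351, 985 and 605 after ACs. In HDAC3-/- it stood at 725, 976 and 762, 277, 491 and 325 and 354, 258 and 714 CPM. Untreated HDAC3-/- lay above untreated HDAC3f/f, 1.51 (SE 0.47, adjusted p = 0.0521), and NACs lay above untreated in HDAC3f/f, 1.24 (SE 0.43, adjusted p = 0.0512), neither called. With the GC and length offset these were 0.74 (adjusted p = 0.338) and 0.62 (adjusted p = 0.346), while the untreated difference was called by limma-voom (adjusted p = 0.0304) and DESeq2 (0.00591). In HDAC3-/- both cocultures lay below untreated, by -1.02 (SE 0.32, adjusted p = 0.0743) for NACs and -0.79 (SE 0.47, adjusted p = 0.43) for ACs. The interactions for NACs or untreated were called for Itga4, 2.48 (SE 0.62, adjusted p = 0.00568), and for Itga5 in the opposite direction, -2.14 (SE 0.56, adjusted p = 0.00684). Both kept an adjusted p under 0.05 with any single library left out. Both calls ended with the GC and length offset, at 0.55 (adjusted p = 0.426) for Itga4 and -1.17 (adjusted p = 0.0983) for Itga5.

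**Figure D3:**
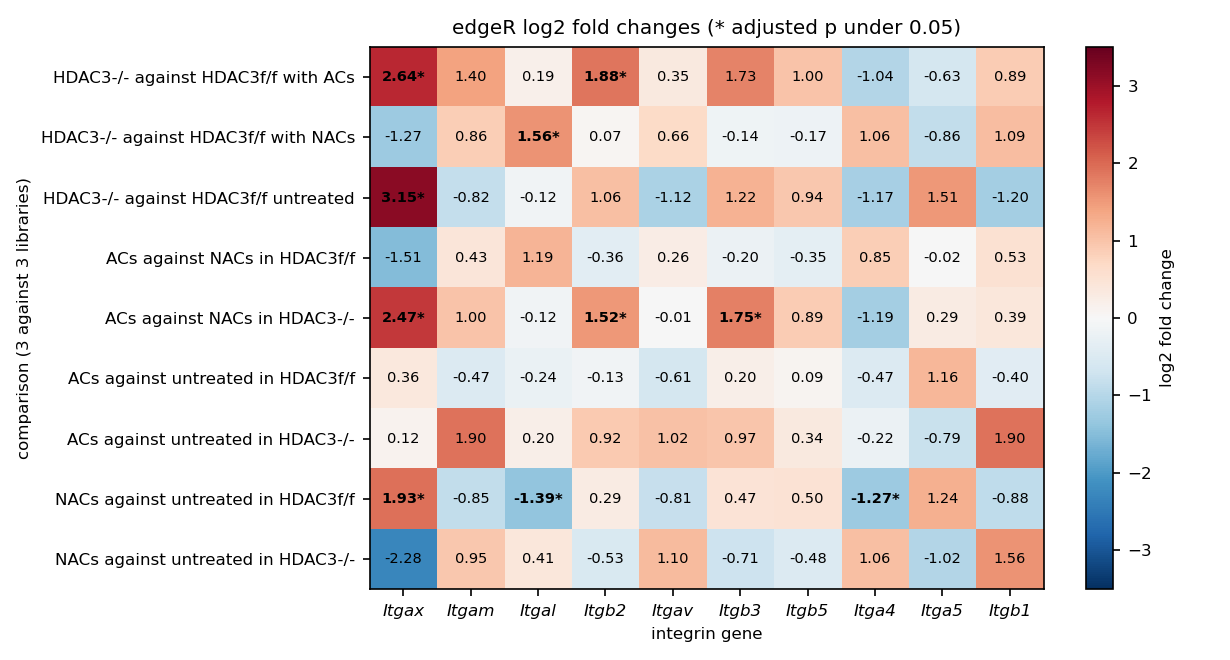
Log2 fold changes of the 10 integrins (columns) in the 9 comparisons of 3 against 3 libraries (rows), from edgeR, with an asterisk where the adjusted p was under 0.05. Itgax carries 4 of the 10 asterisks, and no asterisk stands in the rows of ACs against untreated, of ACs against NACs in HDAC3f/f or of NACs against untreated in HDAC3-/-.

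The direction of many of these differences moved with the GC content of the genes and of the libraries. Transcripts of Itga4 (43.5% GC), Itgb1 (44.7%) and Itgav (46.9%) were the poorest in GC, and those of Itga5 (57.0%) and Itgb5 (56.0%) the richest. Over the 18 libraries the level of Itga5 had r = 0.876 with the GC slope of the library and Itgb5 0.683, while Itgav had -0.789 and Itga4 -0.772. Itgax, of middling GC content (50.8%), had r = 0.666 as well, Itgb3 0.549 and Itgb2 0.386, Itgam (49.9%) and Itgb1 each had -0.581, and Itgal had -0.151. Across the 10 integrins, the log2 fold change had r = 0.65 with GC content between genotype labels untreated, 0.712 for ACs and 0.567 for NACs against untreated in HDAC3f/f, -0.65 for NACs against untreated in HDAC3-/-, and 0.174 between genotype labels with ACs. The integrins share the libraries, so these r are descriptions. After each library was given an offset for GC content and length, the corresponding r were 0.165, 0.173, 0.119, -0.179 and 0.113. The offset is fitted on GC content itself, so smaller r follow from how it is made and say nothing on the origin of the trend.

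With that offset, the calls of Itgax and Itgb2 with ACs remained, as did the interaction of Itgax for NACs or untreated, and the other calls in comparisons with untreated libraries were lost. Between genotype labels with ACs, 4 integrins were called, against 9.91% of all genes with the offset and 3.75% without it. Itgax was higher by 2.25 (adjusted p = 0.0104) and Itgb2 by 1.63 (0.0105), and Itgb5 at 1.11 (0.0318) and Itgb1 at 1.02 (0.0384) were called as well. When the replicate number was also blocked, only 2 were called, Itgax and Itgb2, beside 542 of 12304 genes. Between ACs and NACs in HDAC3-/-, Itgax (2.06, adjusted p = 0.0114) and Itgb2 (1.15, 0.0435) were called and Itgb3 was not (1.27, 0.0515), against 5.19% of genes. The interaction of Itgax was 3.62 for ACs or NACs (0.0199) and -4.30 for NACs or untreated (0.0308), the 1 integrin called in each, against 1.94% and 9.36% of genes. The interactions for NACs or untreated shrank from 2.56 to 0.77 for Itgb1, from 2.48 to 0.55 for Itga4, from 2.05 to 0.64 for Itgav, from 1.95 to 1.34 for Itgam and from -2.14 to -1.17 for Itga5, none of them called. Itgax untreated kept its size at 2.94 without a call (adjusted p = 0.134), as did Itgal with NACs at 1.69 (0.146) and, for NACs against untreated in HDAC3f/f, Itgax at 1.96 (0.157) and Itgal at -1.70 (0.142). The fall of Itga4 there shrank to -0.42 (adjusted p = 0.5).

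**Figure D4:**
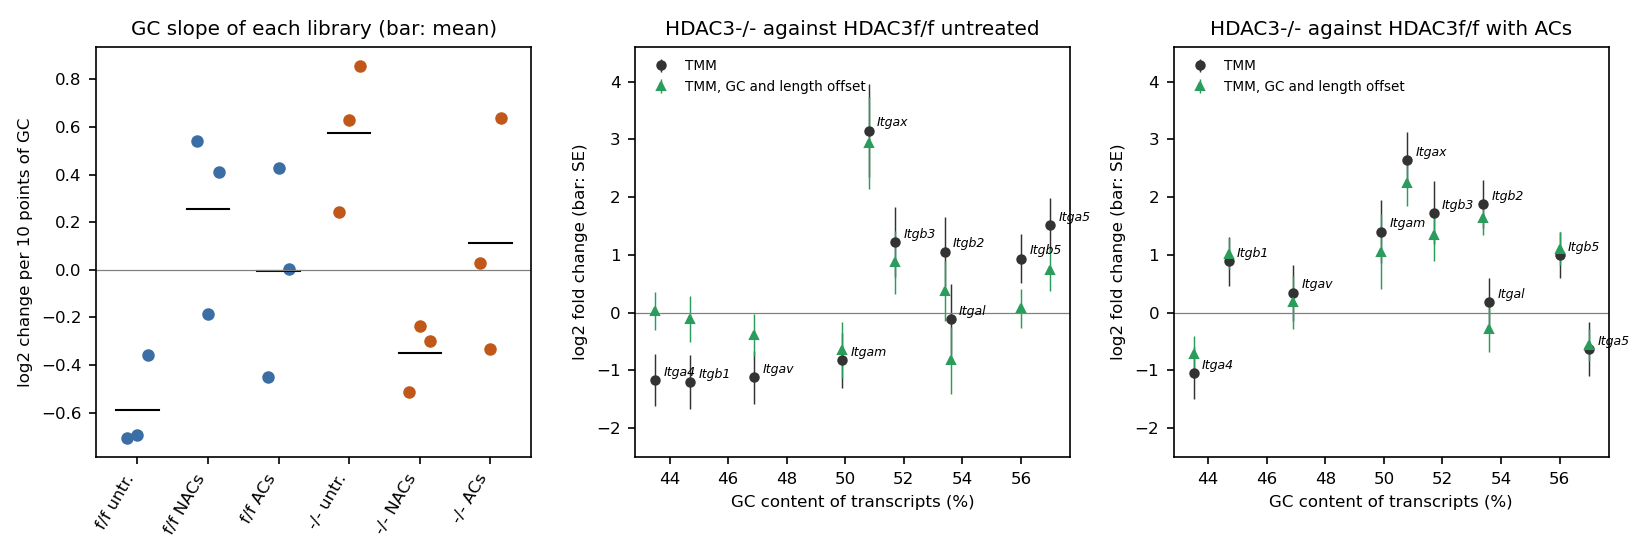
Left, GC slope of each library (log2 change per 10 percentage points of GC content, bar: mean of 3). Middle and right, log2 fold change with its SE for each integrin against the GC content of its transcripts, untreated and with ACs, with TMM scaling (circles) and with the GC and length offset added (triangles). Untreated, the fold changes of the GC-poor Itga4 and Itgb1 move to about 0 with the offset, while that of Itgax changes from 3.15 to 2.94.

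Over the 18 libraries, Itgax, Itgb2 and Itgb3 moved together: on log2(CPM + 1), Pearson r was 0.878 for Itgax with Itgb3, 0.863 for Itgb2 with Itgb3 and 0.846 for Itgax with Itgb2. On the deviations from the group means these were 0.814, 0.722 and 0.816. Itgb5 was close to all of them, with r = 0.842 for Itgb3, 0.813 for Itgax and 0.772 for Itgb2, and 0.695, 0.475 and 0.584 on the deviations. The other α chains of the β2 family were further from Itgb2, with r = 0.516 for Itgal and 0.225 for Itgam, and 0.724 and -0.219 on the deviations. Itgav had r = 0.709 with Itgam (0.762 on the deviations), and -0.249 and -0.375 with its partners Itgb3 and Itgb5 (-0.27 and -0.303). Itga4 had -0.773 with Itgb5 and -0.74 with Itgax, and -0.549 and -0.353 on the deviations. All pairs share library depth and GC trend, so these values describe the libraries.

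**Figure D5:**
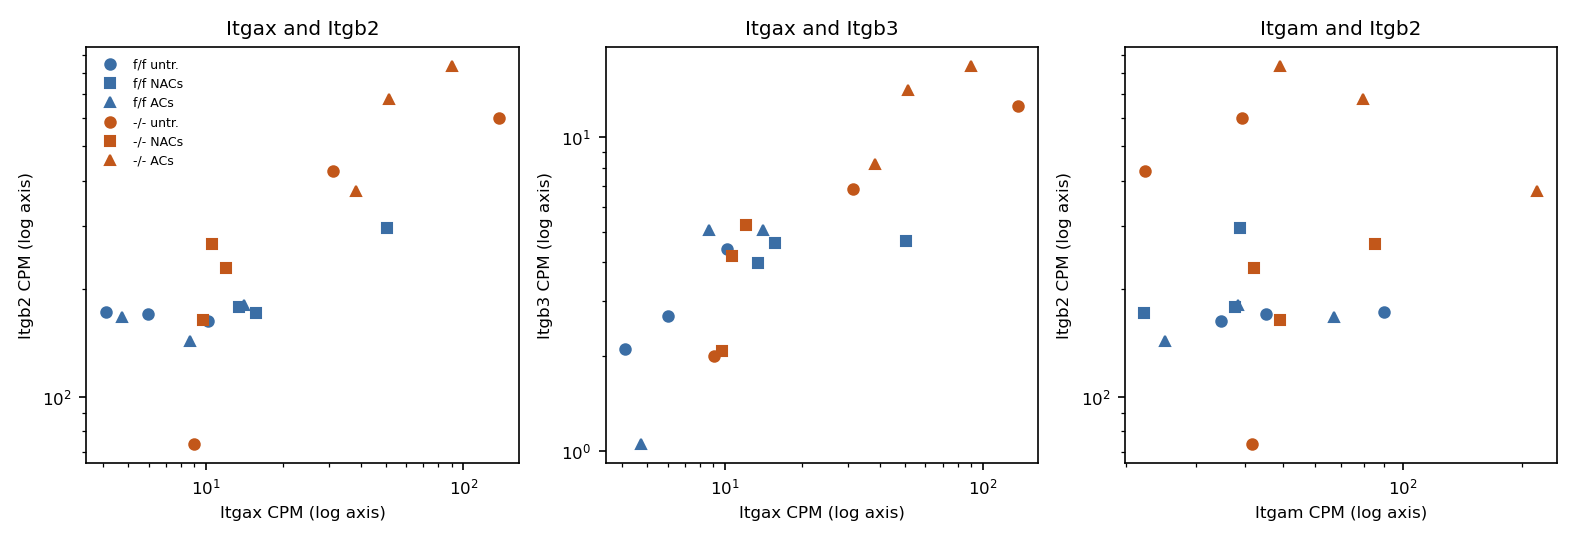
CPM of Itgb2 and Itgb3 against Itgax and of Itgb2 against Itgam in 18 libraries (log axes), with color for the genotype label and shape for the treatment. The points of Itgax with Itgb2 and with Itgb3 rise together, with HDAC3-/- libraries with ACs at the upper right, and those of Itgam with Itgb2 form no line.

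Among the 6780 genes with a mean of at least 10 CPM, those with the pattern most like Itgax over the 18 libraries were Gpc1 (r = 0.961), Sdc1 (0.96) and B3gnt3 (0.927), of which Gpc1 and Sdc1 encode cell surface heparan sulfate proteoglycans. Gpc1 also stood among the 3 genes most like Itgb3 (0.921), with Daglb (0.931) and Angptl2 (0.921). For Itgb2 they were Slc20a1, Gde1 and Saraf (0.94 to 0.945), for Itgam Btg1, Tmem165 and Irf2bp2 (0.902 to 0.949), and for Itgal Lcp2, Stat2 and Stk10 (0.887 to 0.895), Lcp2 being the adaptor SLP-76. For Itgav they were Sept7, Map3k1 and Cab39 (0.895 to 0.921), for Itgb1 Tfg, Nars and Mpeg1 (0.965 to 0.968), for Itgb5 Rrp1, Thap11 and Spg7 (0.945 to 0.957), for Itga4 Ccnt2, 1700020I14Rik and Washc4 (0.913 to 0.929), and for Itga5 Atp13a1, Prrc2a and Ints1 (0.975 to 0.981).

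Other genes of integrin function were read from 5 lists: 16 further subunits, 29 genes of activation and the adhesion complex, 24 of signalling, 26 ligands and bridging proteins and 14 associated membrane proteins. Between genotype labels with ACs, where 3.75% of all genes were called, 1 gene of all lists was called, Tln1, the talin that switches integrins on from inside, at 1.77 (SE 0.47, adjusted p = 0.0459). The median log2 fold changes of the 22 ligands and 23 signalling genes tested were 0.66 and 0.56, with 18 and 19 of them above 0. Over all genes tested the median was -0.006, and 49.7% lay above 0. In this fit edgeR called 0 of these ligands and signalling genes, and the medians were not tested. Between ACs and NACs in HDAC3-/-, where 7.38% of all genes were called, 3 of 6 subunits tested were called higher: Itga3 3.34 (SE 0.84, adjusted p = 0.0163), Itgad 2.73 (SE 0.64, adjusted p = 0.011), which is another partner of Itgb2, and Itgb7 1.64 (SE 0.46, adjusted p = 0.0312). Of the 23 ligands tested, 4 were called, all higher: Fn1 (fibronectin) 1.86 (SE 0.50, adjusted p = 0.0301), Mfge8 1.59 (SE 0.44, adjusted p = 0.0278), Col4a1 2.11 (SE 0.55, adjusted p = 0.0213) and Ccn1 1.76 (SE 0.49, adjusted p = 0.0294). The ligand median was 1.21 there, beside 0.091 over all genes. None of the list calls in these 2 comparisons remained without HDAC3-/- replicate 1 with ACs, where edgeR called 0 genes. With the GC and length offset, 14 of the 95 list genes tested were called between genotype labels with ACs, beside 9.91% of all genes, Tln1 among them (1.58, adjusted p = 0.0125). Between ACs and NACs in HDAC3-/-, the offset called 6 of 94 list genes, beside 5.19% of all genes, and kept 5 of the 17 list calls: Itga3, Itgad, Itgb7, Itgb1bp1 and Axl.

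In the same comparison 5 of the 28 activation and adhesion genes tested were called higher and 4 lower, beside 325 higher and 579 lower of the 12244 genes tested. Over all genes this balance moved with the scaling, to 77 higher and 501 lower with library totals alone. Tln1 rose by 1.79 (SE 0.43, adjusted p = 0.0123) and Rapgef1, which loads Rap1 with GTP, by 1.40 (SE 0.40, adjusted p = 0.0314), while Rap1a, the small GTPase upstream of talin, had -2.15 (SE 0.42, adjusted p = 0.00298) and Lims1, an adaptor of integrin-linked kinase, had -1.87 (SE 0.45, adjusted p = 0.0122). The TAM receptor Axl was the 1 associated membrane gene called, 1.81 (SE 0.45, adjusted p = 0.0183), and 0 of 23 signalling genes were called by edgeR. With fibroblast markers, 7 of 10 of which averaged at least 1 CPM, the sum was 8.24 to 46.9 CPM with NACs and 84.8 to 237 with ACs in HDAC3-/-, without overlap, and it was 8.07 to 204 in HDAC3f/f with ACs. Fn1 and Col4a1 are also products of fibroblasts, and the part of such cells in these calls was not tested. Col1a1 and Col1a2 were present in all 18 libraries, at 2.12 to 96.8 and 0.838 to 109 CPM, and Lum had no count in 13 of 18.

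Between genotype labels untreated, where 11.6% of all genes were called, 3 of 7 subunits tested were called (Itga2b 3.00 (SE 0.87, adjusted p = 0.044), Itgb7 2.25 (SE 0.67, adjusted p = 0.0463) and Itga6 -1.63 (SE 0.42, adjusted p = 0.034)). Of the 28 activation and adhesion genes, 3 were called higher and 4 lower, led by Lims1 -2.26 (SE 0.46, adjusted p = 0.0218), Skap2 -1.85 (SE 0.40, adjusted p = 0.0232), Rap1b -1.97 (SE 0.47, adjusted p = 0.0295) and Rap1a -2.0 (SE 0.51, adjusted p = 0.0333). Of the 23 signalling genes, Src 2.19 (SE 0.46, adjusted p = 0.0218), Ptk2b 1.65 (SE 0.46, adjusted p = 0.0406) and Vav1 1.69 (SE 0.47, adjusted p = 0.0408) were called higher and Cdc42 -2.03 (SE 0.44, adjusted p = 0.0233) lower. Adam15 1.47 (SE 0.44, adjusted p = 0.0476) and Slc3a2 1.53 (SE 0.42, adjusted p = 0.0381), the CD98 heavy chain that binds β chains, were called higher among ligands and membrane partners. The GC and length offset moved Skap2, Cdc42, Rap1b and Rap1a to -0.51, -0.63, -0.70 and -0.76, while Itga2b was 2.26. With it edgeR called 0 of 12101 genes in this comparison (2011 at an unadjusted p under 0.05), so none of these calls was kept. It also called 0 genes without HDAC3f/f replicate 2 or 3 or without HDAC3-/- replicate 3 (2577, 3980 and 3593 at an unadjusted p under 0.05), but 5887 without the shallowest library, HDAC3-/- replicate 1, and 3308 with all 18 libraries in 1 fit.

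With NACs, where 0.864% of all genes were called, 2 of 5 subunits tested were called between genotype labels, Itga6 1.45 (SE 0.35, adjusted p = 0.0443) and Itgb7 -1.78 (SE 0.41, adjusted p = 0.0438). NACs against untreated, with 8.52% of all genes called in HDAC3f/f and 6.54% in HDAC3-/-, gave called changes of the same 2 subunits in HDAC3f/f, Itga6 -1.44 (SE 0.38, adjusted p = 0.0218) and Itgb7 1.80 (SE 0.49, adjusted p = 0.0322), and of Itga6 in HDAC3-/-, 1.78 (SE 0.36, adjusted p = 0.0353). In HDAC3f/f the other called genes were Lims1 -1.42 (SE 0.38, adjusted p = 0.0241), Zyx 1.33 (SE 0.43, adjusted p = 0.0443) and Parvb 1.19 (SE 0.40, adjusted p = 0.0445) of the adhesion complex, Src 1.47 (SE 0.41, adjusted p = 0.0278) and Lcp2 -1.40 (SE 0.40, adjusted p = 0.0295) of signalling, and the ligands Mfge8 2.22 (SE 0.57, adjusted p = 0.0283), Adam9 -1.43 (SE 0.40, adjusted p = 0.0283) and Adam15 1.27 (SE 0.41, adjusted p = 0.0404). In HDAC3-/- they were Skap2 1.49 (SE 0.32, adjusted p = 0.0368), Lims1 2.08 (SE 0.45, adjusted p = 0.0373) and Rap1a 1.93 (SE 0.48, adjusted p = 0.0454), and Cdc42 1.96 (SE 0.36, adjusted p = 0.0353) and Src -1.54 (SE 0.37, adjusted p = 0.0437). With the offset edgeR called 0 genes in both comparisons with untreated cells (1992 and 1817 at an unadjusted p under 0.05) and 1 gene between genotype labels with NACs. The calls in HDAC3-/- were lost in other ways as well: edgeR called 0 genes there with DESeq2 size factors (4004 at an unadjusted p under 0.05), with the replicate block (2882), and without any 1 of 5 of the 6 libraries, but 4441 without the shallowest. In HDAC3f/f it called 0 genes with library totals alone or with all 18 libraries in 1 fit (3437 and 3275 at an unadjusted p under 0.05), and 21 to 46 without replicate 1 or 2 untreated or replicate 1 or 3 with NACs, but 4232 without replicate 2 with NACs. Between genotype labels with NACs it called 0 genes without HDAC3f/f replicate 1 (1652 at an unadjusted p under 0.05) and with all 18 libraries in 1 fit (2063), but 3121 without HDAC3f/f replicate 2.

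The interaction for NACs or untreated, in which 34.8% of all genes were called, called 3 of 8 subunits tested, 9 of 28 activation and adhesion genes, 12 of 24 signalling genes, 4 of 23 ligands and 5 of 14 membrane genes. By smallest p the named genes were Itga6 3.35 (SE 0.56, adjusted p = 0.000779), Itgb7 -3.75 (SE 0.85, adjusted p = 0.00426) and Itga7 -4.31 (SE 1.67, adjusted p = 0.0489) of the subunits, and Lims1, Skap2, Rap1a and Rap1b of the adhesion list, at 3.63, 2.65, 3.03 and 2.85. Of signalling they were Cdc42, Src, Lyn and Crk at 3.21, -2.90, 2.73 and 2.26, and of ligands Adam9, Adam15, Icam2 and Mfge8 at 3.40, -2.05, -2.46 and -4.12. Of membrane genes they were Slc3a2, Tgm2, Bsg and Cd36 at -1.97, -1.97, -1.47 and 2.15. The GC and length offset moved Tgm2, Bsg and Cd36 to -0.76, -0.47 and 0.42 and Skap2 to 0.66, while Itga7 was -3.75. With the GC and length offset 6 of these 33 list calls were kept, Itga6 at 2.01 (adjusted p = 0.0112), Itgb7 at -2.52 (0.0382), Lims1 at 1.77 (0.0209), Src at -1.75 (0.0387), Ptk2b at -1.49 (0.0443) and Lrp1 at 2.5 (0.0155), against 9.36% of all genes. The interactions for ACs or NACs and for ACs or untreated called 0 of 97 and 0 of 98 genes of these lists with edgeR, beside 0.0765% and 0.0% of all genes. With the offset they called 1 and 0, beside 1.94% of all genes for ACs or NACs and 0 of 13225 genes (2194 at an unadjusted p under 0.05) for ACs or untreated.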

How the data were processed

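RNA-seq was made from 18 mouse macrophage libraries, 3 per group. The deposited values are raw read counts per gene, which the authors obtained by aligning paired reads to the mouse genome. The submitters' processing notes list Trimmomatic 0.36, STAR 2.5.2b, Subread 1.5.2 with featureCounts, and GRCm38. The strand setting and the treatment of reads that fit several genes are not given in the sources used here. Gene positions and exon lengths are those of the count tables, symbols were taken from an annotation table (48970 of 49315 genes), and GC content from GENCODE M21 transcripts. Of 49056 genes shared with that annotation, 44858 have the same start and end.

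Fits used only the libraries being compared and were made by edgeR 4.0.16 in R 4.3.3 (filterByExpr with a minimum count of 10 and a minimum total of 15, TMM, glmQLFit robust, glmQLFTest), adjusted by Benjamini-Hochberg over all genes tested. Interactions were fitted over the 4 groups concerned. CPM were scaled by TMM over the 18 libraries, and log2 values used a pseudocount of 1 CPM. The GC slope was fitted over 11273 genes with a mean of at least 1 CPM. No label ties the replicate numbers to a shared animal or day, so blocking on them was an alternative only. The alternatives were DESeq2 1.42.0 size factors and Wald test, limma-voom (limma 3.58.1), library totals alone, fits without the filter or with one of 10 or more counts in each library, a joint fit of all 18, blocking on the replicate number, a GC and length offset (mgcv 1.9.3), the block with that offset, and leaving out single libraries. The main fit and some of the alternatives were also run on simulated counts with known fold changes, made from the means of the libraries with ACs. Those counts held no GC trend, outlying library or interaction. They therefore do not test how the fits behave under the GC trends and single-library dependence described above. The members and the lists were chosen with earlier results of these data known. Named by rule were all 10 integrins, with statistics where called or without overlap of the groups, at most 4 called genes per list and comparison by smallest p, and the 3 genes with the highest r for each integrin.

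Between replicates, the chi-squared statistic over genes was 39.7 to 345 per degree of freedom, above sampling noise. Human transcripts of K562 cells were not separated here, and reads were not realigned.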

Additional observations from a re-analysis of the deposited data

Results flagged for a closer look

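For 6 integrins the genotype effect differed between treatments by edgeR's interaction test, with adjusted p under 0.05. For ACs or NACs it was Itgax alone, with an interaction of 3.997 on the log2 scale. For NACs or untreated the interactions were -4.093 for Itgax, 1.946 for Itgam, 2.047 for Itgav, 2.558 for Itgb1, 2.479 for Itga4 and -2.144 for Itga5. In the latter contrast 34.8% of all genes tested were called, so 6 of 10 is read against that share. The GC slope of the libraries moved with the same contrast, from a mean of -0.587 to 0.576 between the genotype labels untreated and from 0.254 to -0.349 with NACs. With the GC and length offset the interaction of Itgax was -4.302 (adjusted p = 0.0308) and those of the other 5 were not called. Groups of 3 libraries are too small for a test of outliers.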

How the results depend on the processing

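Of 122 counts under the alternatives, 85 lay within 1.5 times the main count. They cover the calls of integrins, many with 0 beside a main count of 0, and the order of levels per kb. That order held under both other scalings. HDAC3-/- against HDAC3f/f with ACs gave 2 calls, 4 with no filter, 4 with the GC and length offset and 2 with the replicate block and that offset. With NACs the 1 call became 2 with the DESeq2 Wald test or no filter, and 0 with library totals alone, limma-voom, all 18 libraries in one fit, the offset, and the replicate block with the offset. Untreated, the 1 call became 2 with DESeq2 size factors, limma-voom or the replicate block, 3 with the DESeq2 Wald test or at least 10 counts throughout, 4 with library totals alone or all 18 libraries, and 0 with the offset, with or without the block. ACs against NACs in HDAC3-/- gave 3 calls and 0 with all 18 libraries. NACs against untreated in HDAC3f/f gave 3 calls, 1 with limma-voom or the block with the offset, and 0 with library totals alone, all 18 libraries or the offset. In HDAC3-/- it gave 0, but 2 with library totals alone, limma-voom or no filter, 3 with the DESeq2 Wald test and 1 with all 18 libraries. The interaction for ACs or NACs gave 1 call, 3 with the DESeq2 Wald test, 2 with no filter, and 0 with library totals alone, limma-voom or all 18 libraries. That for ACs or untreated gave 0, and 2 with the DESeq2 Wald test. That for NACs or untreated gave 6, and 1 with the offset, with or without the block. The cause was not tested.

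Leaving out 1 library in turn moved the count from 0 to 3 with ACs, 0 to 6 with NACs and 0 to 9 untreated between genotype labels. It was 0 to 4 for ACs against NACs in HDAC3-/-, 0 to 6 and 0 to 7 for NACs against untreated in HDAC3f/f and HDAC3-/-, 0 to 3 for the interactions of ACs or NACs and of ACs or untreated, and 4 to 9 for NACs or untreated. The counts of 9 and 7 came without the shallowest library. Among the integrin values called or without overlap, direction reversed only with the offset, without and with the block. It did so for Itga4 between genotype labels untreated (0.028 and 0.03), Itgb1 for ACs against untreated (0.036 and 0.037) and Itgb5 for NACs against untreated (-0.147 and -0.129), the latter both in HDAC3f/f. Of the list genes called in the interaction for NACs or untreated, the offset turned Apbb1ip from 1.52 to -0.37 and Elmo1 from 1.89 to -0.08. With library totals alone, the median of all genes in the interaction for NACs or untreated went from 0.124 to 0.701 on the log2 scale, and it was -0.268 with DESeq2 size factors, -0.281 with all 18 libraries in one fit and -0.605 with the DESeq2 Wald test.

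No label ties same-numbered replicates to a shared animal or day, and correlations alone cannot settle whether they shared one. Over the 9 pairs of groups compared, the correlations of their deviations ran from -0.494 (NACs and ACs in HDAC3f/f) to 0.559 (untreated and ACs in HDAC3f/f), and in none of these pairs were all 3 over 0.1. Of the pairs not compared directly, HDAC3f/f with ACs and HDAC3-/- with NACs had all 3 over 0.1 (0.224 to 0.577). The replicate block moved the genes called from 461 to 373 between genotype labels with ACs and from 904 to 1400 for ACs against NACs in HDAC3-/-. For NACs against untreated it moved them from 1015 to 1784 in HDAC3f/f and from 794 to 0 in HDAC3-/-. Between genotype labels with NACs they went from 103 to 217. For the interaction for ACs or NACs they went from 10 to 152, and for ACs against untreated in HDAC3f/f from 0 to 53.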
